A study of Arabidopsis thaliana with 4 samples.

Results

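The genes described are those of the IQD family, plant proteins that carry an IQ domain with which they bind calmodulin. They were taken as every probe set that the array annotation pairs with exactly 1 gene whose symbol starts with IQD or iqd. The rule found 11 probe sets of 11 genes among 16319 probe sets, of which 9685 were paired with 1 gene. They are iqd15, IQD16, IQD18, iqd21, IQD22, IQD26, IQD27, IQD28, IQD30, IQD31 and iqd32, spelled as in the annotation. RefSeq lists 33 genes with such a symbol, and the other 22 were not analysed here. The rule itself uses no expression value, though the family was picked with earlier results of these data known.

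The samples were leaves of Arabidopsis thaliana plants labelled as 5 weeks old and grown in short days. The 2 samples after probenazole (PBZ) came from plants whose roots had been drenched with PBZ at 0.5 mM and were taken 72 h later. PBZ is a plant defence activator, applied here to raise the plants' own salicylic acid. The 2 samples before PBZ were taken untreated at 0 h. Rosette leaves 5 to 8 were used in both groups, each RNA sample was hybridised to its own Affymetrix array, and the labels call the 2 of each group biological replicates. Whether plants were pooled, and the genotype or accession, are not stated in the sources used here. Untreated plants were not sampled again at 72 h, so treatment, plant age and time of sampling cannot be told apart.

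Calmodulin is a small calcium sensor, and IQ motifs are short stretches through which it holds on to its partners whether or not calcium is bound. IQD proteins are known as calmodulin-binding scaffolds, many of which lie on microtubules, at the plasma membrane or in the nucleus. Through kinesin light chain-related partners several of them act on the microtubule array and on the shape of growing cells, such as the pavement cells of the leaf surface. The founding member, IQD1, is known for raising glucosinolate levels and resistance to insects and was not analysed here.

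The median signal per array was 32.5 and 27.1 after PBZ, against 19.2 and 27.6 before PBZ. How the arrays were scaled to each other is not stated, so changes are given on the deposited scale and after centring each array on its median. Over all 12239 tested probe sets the median log2 change was 0.37 on the deposited scale and 0.01 after centring, and this shift is part of every member's change on the deposited scale. The arrays read as leaf: the antenna gene LHCB4.1, a marker of green tissue, had signals of 6940.3 and 5878.5 after PBZ, against 5555.8 and 7642.0 before PBZ. The root marker PYK10 read 3.3 and 11.7 after PBZ, against 5.9 and 8.6 before PBZ. In RNA from whole leaves, fewer cells of a type and less RNA per cell cannot be told apart.

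Of the 11 IQD probe sets, 6 were bright enough to be tested: iqd21, IQD22, IQD28, IQD30, IQD31 and iqd32. The other 5 were among the lowest 0.25 of probe sets by mean log2 signal and were left out of the test. All 6 tested members had a lower mean log2 signal after PBZ than before PBZ, and their median log2 change was -0.44. On the deposited scale none passed the test in either direction (limma, 2-sided, Benjamini-Hochberg adjusted p under 0.05), against 5.33% of all tested probe sets called higher and 0.245% called lower. At an unadjusted p under 0.05 there was 1 member, iqd21, and 1.90% of all tested probe sets were below 0 at that threshold. With each array centred on its median, iqd21 passed as a fall and the other 5 did not. On that scale 1.46% of all tested probe sets were called lower and 4.93% higher. At an unadjusted p under 0.05, iqd21 was again the 1 member, and 7.64% of all tested probe sets were lower.

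**Figure D1:**
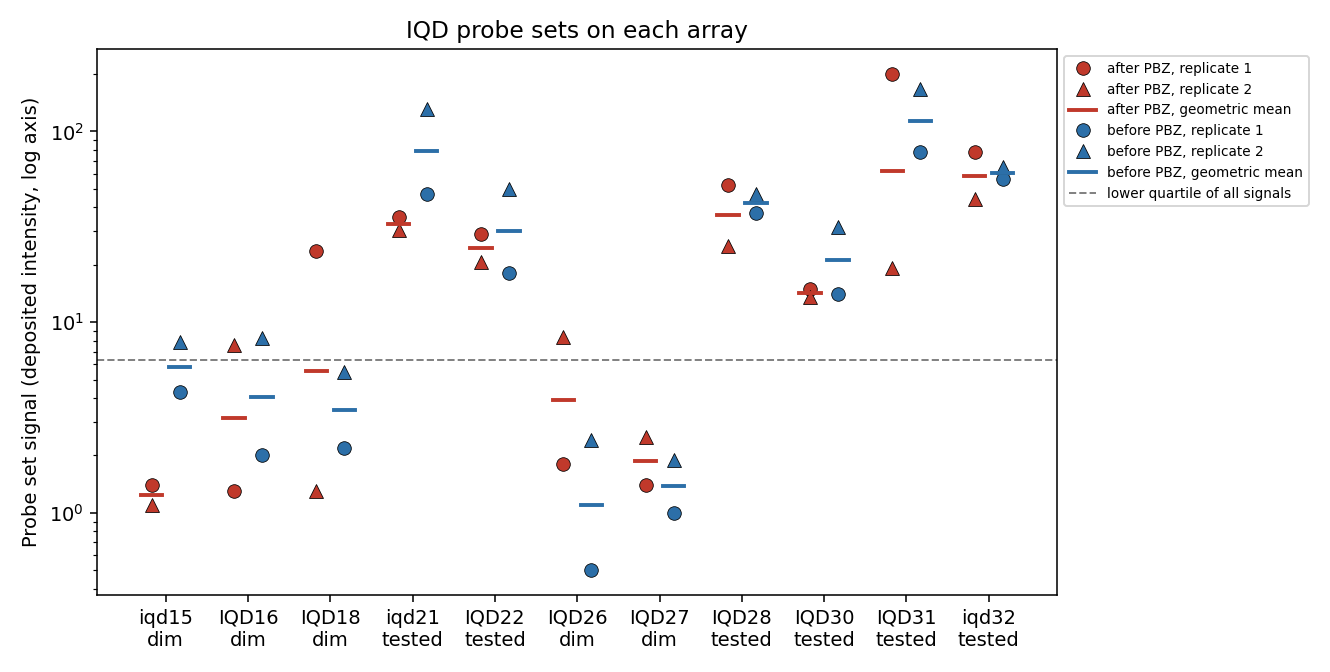
Signal of each of the 11 IQD probe sets (deposited intensity, log axis) on each of the 4 arrays, with after PBZ in red at the left and before PBZ in blue at the right of each gene; circles are replicate 1, triangles replicate 2, bars the geometric mean of 2 arrays, and the dashed line the lower quartile of all signals (6.3). The 2 groups of iqd21 do not overlap, and the 2 arrays after PBZ of IQD31 lie far apart, at 199.3 and 19.3.

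iqd21 (AT3G49260) had signals of 35.4 and 30.3 after PBZ, against 47.2 and 130.5 before PBZ. Both arrays after PBZ were thus below both before PBZ, and the 2 arrays before PBZ differed by more than those after it. The means were 32.9 ± 3.61 after PBZ and 88.9 ± 58.9 before PBZ (SD, 2 arrays each). On the deposited scale the log2 change was -1.26 ± 0.59 (SE; 95% interval -2.47 to -0.05; limma adjusted p = 0.268), which is 2.40-fold lower by geometric means and did not pass. Leaving out before replicate 2 gave -0.53 ± 0.62 (adjusted p = 0.656), and leaving out before replicate 1 gave -1.99 ± 0.61 (adjusted p = 0.110). iqd21 was the 1 tested member whose groups did not overlap on the deposited scale, where both arrays after PBZ were lower than both before in 10.6% of all tested probe sets.

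Relative to each array's median, iqd21 stood at 1.09 and 1.12 times the median after PBZ, against 2.46 and 4.73 times the median before PBZ. On this centred scale it fell by 1.63 on the log2 scale (SE 0.47; 95% interval -2.61 to -0.64; limma adjusted p = 0.0414), or 3.09-fold. Of all tested probe sets 3.85% had a change as low or lower. Under quantile normalization it passed as well (log2 change -1.71 ± 0.47, adjusted p = 0.0302), where 2.27% of tested probe sets were called lower and 4.46% higher. The call on the centred scale was lost without before replicate 2 (log2 change -1.16 ± 0.65, adjusted p = 0.375). It held with each of the other 3 arrays left out (adjusted p from 0.0268 to 0.0320), a check added after the data were seen.

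The other 5 tested members did not pass on either scale. IQD31 (AT1G74690) had signals of 199.3 and 19.3 after PBZ, against 77.8 and 166.0 before PBZ. The highest and the lowest of its 4 values were thus both from leaves after PBZ. These 2 replicates differed 10.3-fold, and 1.19% of all tested probe sets differed by at least as much between the arrays after PBZ. Its means were 109.3 ± 127 after PBZ and 121.9 ± 62.4 before PBZ (SD, 2 arrays each), and on the deposited scale its log2 change was -0.87 ± 0.72 (limma adjusted p = 0.600).

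The direction for IQD31 rested on 1 array. Without after replicate 2 the log2 change was 0.81 ± 0.87 (adjusted p = 0.863), and without after replicate 1 it was -2.56 ± 0.82 (adjusted p = 0.0781). On the centred scale it was -1.24 ± 0.65 (limma adjusted p = 0.314), with 0.31 ± 0.49 (adjusted p = 0.836) without after replicate 2 and -2.79 ± 0.52 (adjusted p = 5.89e-06) without after replicate 1. No group mean of IQD31 lies near both of the arrays after PBZ.

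IQD30 (AT1G18840) had signals of 14.9 and 13.5 after PBZ, against 14.1 and 31.7 before PBZ. The replicates after PBZ were close to each other and to before replicate 1, and before replicate 2 stood above the rest. The log2 change was -0.58 ± 0.71 (95% interval -2.04 to 0.88; limma adjusted p = 0.752) on the deposited scale and -0.94 ± 0.63 (adjusted p = 0.460) on the centred scale. Without before replicate 2 it was 0.01 ± 0.80 on the deposited scale (adjusted p = 0.998).

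IQD28 (AT1G14380) had signals of 52.6 and 25.1 after PBZ, against 37.4 and 46.9 before PBZ. The values before PBZ lay between those after it, so the groups overlapped on the deposited scale. Relative to the array medians the values were 1.62 and 0.926 after PBZ, against 1.95 and 1.70 before PBZ, which do not overlap. The log2 change was -0.20 ± 0.58 (limma adjusted p = 0.910) as deposited and -0.57 ± 0.49 (adjusted p = 0.583) after centring. Without after replicate 2 it was 0.33 ± 0.79 as deposited (adjusted p = 0.942).

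iqd32 (AT1G19870) had signals of 78.3 and 44.0 after PBZ, against 56.2 and 65.4 before PBZ. Its means of 61.2 ± 24.3 after PBZ and 60.8 ± 6.51 before PBZ (SD, 2 arrays each) were nearly equal. The log2 change of -0.05 ± 0.57 had a 95% interval from -1.21 to 1.11 (limma adjusted p = 0.983), and after centring it was -0.41 ± 0.46 (adjusted p = 0.693). A rise or a fall of a log2 of 1 lies inside the first interval, so the test does not show that its level stayed the same.

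IQD22 (AT4G23060), known as a repressor of gibberellin responses, had signals of 29.1 and 20.6 after PBZ, against 18.1 and 49.8 before PBZ. Both arrays after PBZ lay between the 2 before PBZ, which differed 2.75-fold. The log2 change was -0.29 ± 0.63 (95% interval -1.59 to 1.00; limma adjusted p = 0.873) as deposited and -0.66 ± 0.53 (adjusted p = 0.560) after centring. Without before replicate 2 it was 0.44 ± 0.69 (adjusted p = 0.750) as deposited.

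**Figure D2:**
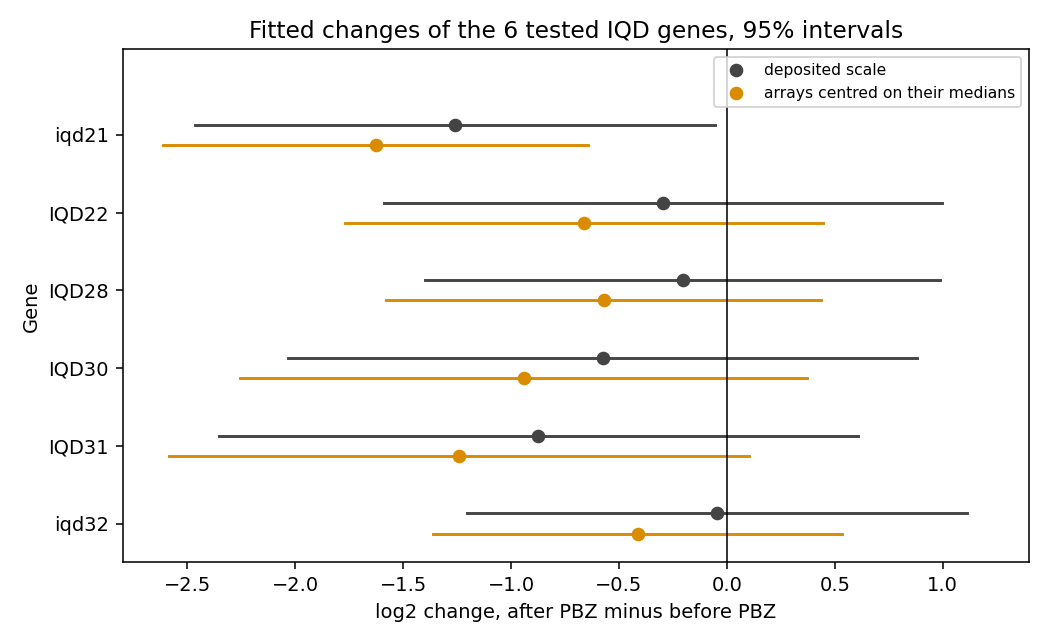
Fitted log2 change (after PBZ minus before PBZ) of the 6 tested IQD genes, with points for the estimate and lines for its 95% interval from limma, on the deposited scale (grey) and with each array centred on its median (orange). All 12 points lie below 0, and the interval excludes 0 for iqd21 on both scales, before adjustment over all probe sets.

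The log2 changes of the 6 tested members ran from -1.26 to -0.05 as deposited and from -1.63 to -0.41 after centring, with medians of -0.44 and -0.80, beside medians of 0.37 and 0.01 over all tested probe sets. A log2 change below 0 was found in 32.6% of all tested probe sets as deposited and in 49.7% after centring. After centring, both arrays after PBZ were lower than both before for 4 members, iqd21, IQD22, IQD28 and IQD30, where 22.8% of all tested probe sets had this order. Members share the same 4 RNA samples, so they are not independent tests of the treatment.

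**Figure D3:**
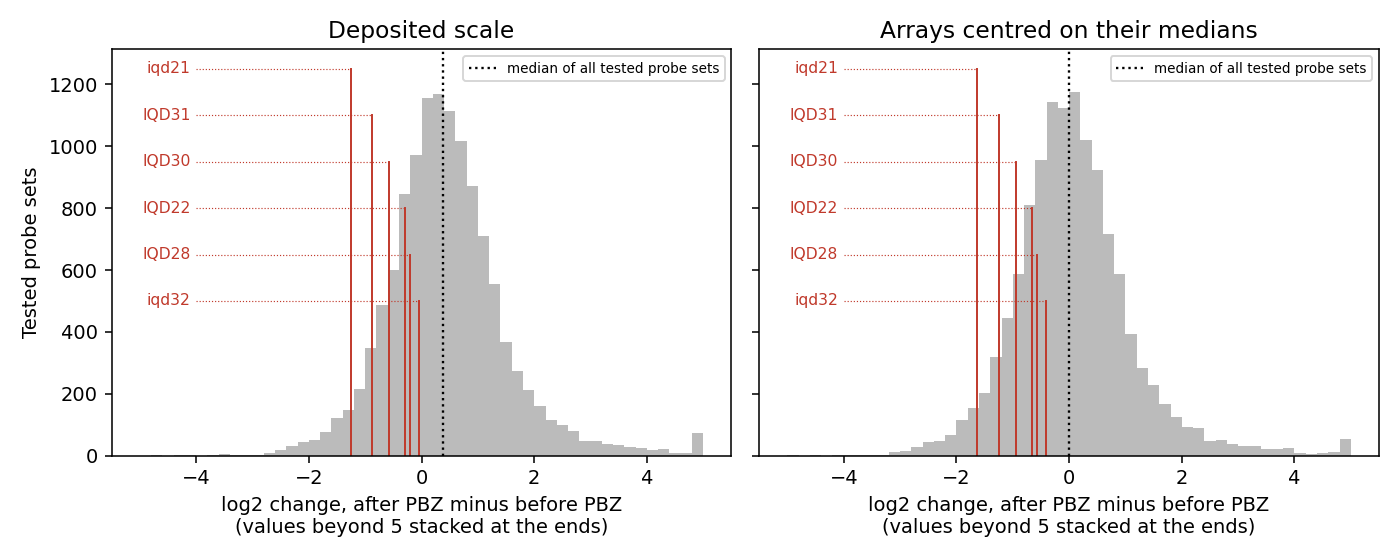
Number of tested probe sets (bars, width 0.2) by log2 change, after PBZ minus before PBZ, on the deposited scale (left) and with each array centred on its median (right), with red lines at the 6 tested IQD genes (line heights carry no value) and a dotted line at the median of all tested probe sets (0.37 and 0.01). All 6 members lie left of the median in both panels, with iqd32 nearest to it and iqd21 farthest.

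The 2 replicate arrays of a group differed in the same direction for most members. On the deposited scale all 11 members were higher on before replicate 2 than on before replicate 1. For the 6 tested members the median difference was a log2 of 1.13, beside 0.58 over all tested probe sets, of which 77.7% were higher on before replicate 2. All 6 tested members were lower on after replicate 2 than on after replicate 1, with a median difference of -0.66, beside -0.12 over all tested probe sets, of which 55.7% were lower. After centring, 4 of the 6 were still higher on before replicate 2, as were 53.2% of all tested probe sets. Also after centring, 4 of the 6 were still lower on after replicate 2, as were 42.3% of all tested probe sets. The median difference on after replicate 2 was then -0.40 for the 6 members, beside 0.15 over all tested probe sets. The part of this spread in the members' changes was not tested beyond leaving out each array.

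With 1 array left out on the deposited scale, the median log2 change of the 6 members was 0.14 without after replicate 2 and -0.02 without before replicate 2. It was -0.69 without after replicate 1 and -1.09 without before replicate 1. iqd21 alone among the 6 had non-overlapping groups on both scales, which fixes a change below 0 whichever array is left out. Both arrays after PBZ were lower than both before in 10.6% of all tested probe sets as deposited and in 22.8% after centring. No member passed with any array left out on the deposited scale.

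**Figure D4:**
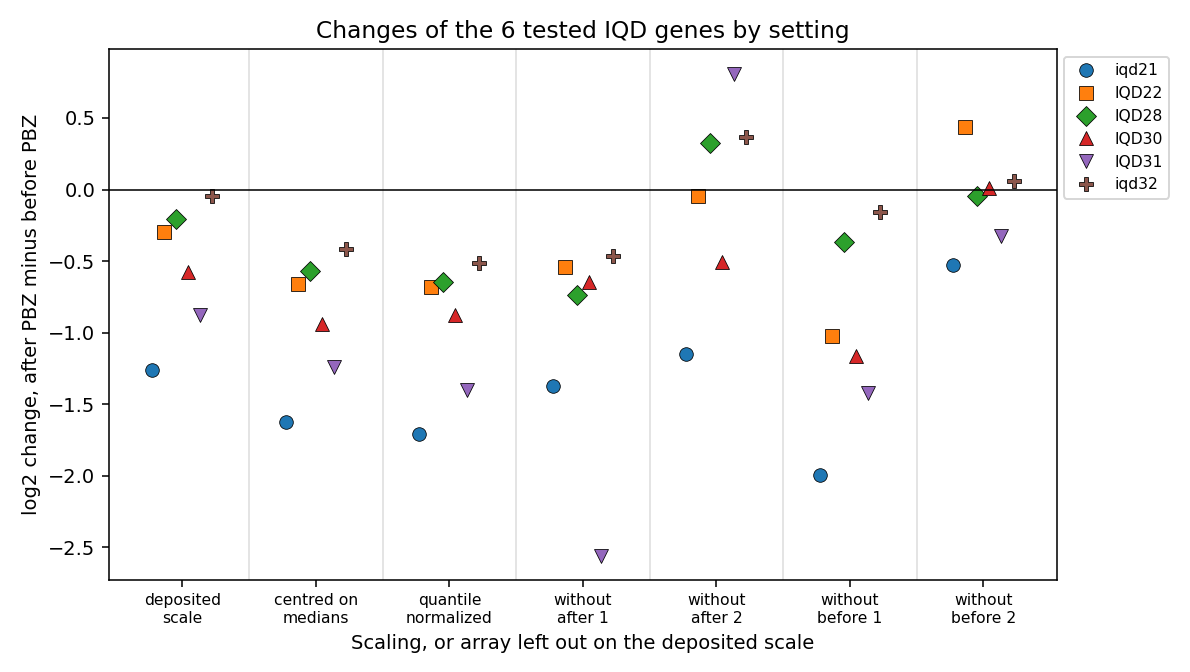
Fitted log2 change (after PBZ minus before PBZ) of each of the 6 tested IQD genes, a symbol per gene, under the deposited scale, 2 other scalings, and with each array left out in turn on the deposited scale. Points above 0 appear without after replicate 2 (IQD28, IQD31 and iqd32) and without before replicate 2 (IQD22, IQD30 and iqd32). iqd21 lies below 0 throughout, which its non-overlapping groups fix in advance with any array left out.

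The other 5 members were dim, and their values are given without a test. iqd15 (AT3G49380), which lies 12 protein-coding genes from iqd21 on chromosome 3 in RefSeq, read 1.4 and 1.1 after PBZ, against 4.3 and 7.9 before PBZ. Both arrays after PBZ were below both before PBZ, but 3 of the 4 values were under 6.3, the lower quartile of all signals, so no fold is given. iqd15, IQD16 and IQD18 are known from work on auxin-responsive IQD genes of the embryo and root, whose proteins bind microtubules. IQD16 (AT4G10640) read 1.3 and 7.6 after PBZ, against 2.0 and 8.3 before PBZ. In both groups replicate 2 of IQD16 was the higher, and the groups overlapped.

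IQD18 (AT1G01110) read 23.7 and 1.3 after PBZ, against 2.2 and 5.5 before PBZ, so its highest and lowest values were again the 2 arrays after PBZ. IQD26 (AT3G16490) read 1.8 and 8.4 after PBZ, against 0.5 and 2.4 before PBZ, with overlapping groups. IQD27 (AT1G51960) read 1.4 and 2.5 after PBZ, against 1.0 and 1.9 before PBZ, under the lower quartile on all 4 arrays. Of these genes only IQD18 on after replicate 1 and IQD26 on after replicate 2 read above the lower quartile. Their other values were under it, near the bottom of the scale, so no change is given. With no filter on dim probe sets, none of the 11 members passed (limma adjusted p for these 5 from 0.467 to 0.947).

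Genes that work beside IQD proteins were taken from lists of calcium and microtubule genes. Of the calmodulin-like proteins, small calcium sensors related to calmodulin, 6 were found and 5 tested, and none passed on either scale. Their median log2 change was 0.38 as deposited and 0.01 after centring, beside 0.37 and 0.01 over all tested probe sets. CML41 had signals of 41.7 and 24.0 after PBZ, against 16.8 and 17.5 before PBZ, groups that do not overlap (log2 change 0.88 ± 0.63, limma adjusted p = 0.527, and 0.52 ± 0.55 after centring, adjusted p = 0.684). As deposited, CML42 and CML30 were also higher after PBZ without overlap, but after centring their groups overlapped. The share of all tested probe sets with this higher order was not computed, so whether it sets these genes apart is not known. CML38 read 0.4 and 14.0 after PBZ, against 4.2 and 26.7 before PBZ, a wide spread within both groups (log2 change -2.16 ± 1.63, limma adjusted p = 0.554, and -2.53 ± 1.75 after centring, adjusted p = 0.478). CML42 had a log2 change of 0.47 ± 0.56 (adjusted p = 0.743) as deposited and 0.10 ± 0.46 (adjusted p = 0.937) after centring.

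Myosins, motor proteins on actin, also carry IQ motifs. Of the other IQ motif proteins 3 were found, all myosins, and the 2 tested did not pass on either scale, with a median log2 change of -0.08 as deposited and -0.45 after centring. XI-I had signals of 66.2 and 41.6 after PBZ, against 27.9 and 73.7 before PBZ (log2 change 0.21 ± 0.59, limma adjusted p = 0.909), and its direction turned after centring (-0.16 ± 0.48, adjusted p = 0.904). XIJ read 23.8 and 1.7 after PBZ, against 1.9 and 35.6 before PBZ, with a high and a low array in each group (log2 change -0.37 ± 1.36, adjusted p = 0.934, and -0.74 ± 1.37 after centring, adjusted p = 0.828). No calmodulin gene, kinesin light chain-related partner, CBP60 factor or calcium-dependent kinase of the lists was analysed here.

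Of the microtubule genes 16 were found and 13 tested, and none passed on the deposited scale. At an unadjusted p under 0.05, 2 of the 13 were lower as deposited (TUB1 and TUB7), where 1.90% of all tested probe sets were, and 5 of the 13 after centring (also TRM20, TUB5 and TRM15), where 7.64% were. None was higher at that threshold as deposited. Their median log2 change was 0.11 as deposited and -0.25 after centring, with 6 and 7 of the 13 below 0. The beta-tubulin gene TUB7 had signals of 45.9 and 23.1 after PBZ, against 69.3 and 84.3 before PBZ, with no overlap. Its log2 change was -1.23 ± 0.57 (limma adjusted p = 0.266) as deposited, and after centring it fell by 1.60 (SE 0.47, adjusted p = 0.0423), the 1 member of these lists that passed there. That call was lost without after replicate 2 (adjusted p = 0.150), before replicate 1 (0.271) or before replicate 2 (0.101). TUB1, another beta-tubulin gene, read 11.0 and 3.9 after PBZ, against 20.8 and 35.6 before PBZ, also with no overlap (log2 change -2.06 ± 0.82, adjusted p = 0.166; 0.0582 after centring). TUB9 read 265.9 and 260.6 after PBZ, against 75.4 and 221.2 before PBZ, higher with no overlap (log2 change 1.03 ± 0.58, adjusted p = 0.388, and 0.66 ± 0.45 after centring, adjusted p = 0.472). Among the other tested microtubule genes TRM15 was lower without overlap as deposited, and TUA1, TRM18 and SPR1 were higher without overlap. After centring TRM20, TRM34 and TUB5 were also lower without overlap, and SPR1 overlapped. Both arrays after PBZ were lower than both before in 10.6% of all tested probe sets as deposited and in 22.8% after centring. The share with the higher order was not computed, so whether that order sets TUB9, TUA1, TRM18 and SPR1 apart is not known. TUB5 had a log2 change of -0.92 ± 0.60 (adjusted p = 0.475) as deposited and -1.28 ± 0.48 (adjusted p = 0.129) after centring. Thus 3 of the 4 tested beta-tubulin genes lay below 0 on both scales, and TUB9 lay above 0 on both. Values below 0 made up 32.6% of the whole tested set before centring and 49.7% afterwards. Beta-tubulins were not a list of their own, and TUA1, SPR1, TRM18, TRM19 and TRM26 were also above 0 on both scales. Whether iqd21 and the microtubule genes differ in their changes was not tested.

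Markers of other leaf cell types gave these values beside the IQD genes. The guard cell factor FMA had signals of 28.9 and 35.5 after PBZ, against 22.5 and 24.7 before PBZ (log2 change 0.44 ± 0.60, limma adjusted p = 0.779, and 0.08 ± 0.52 after centring, adjusted p = 0.963). The phloem sugar transporter SWEET11 read 1118.3 and 1342.5 after PBZ, against 2008.7 and 1472.7 before PBZ (log2 change -0.49 ± 0.42, adjusted p = 0.615; -0.86 ± 0.40 after centring, adjusted p = 0.237). Of the 4 markers of green tissue LHCB4.3 passed after centring (log2 change -1.32 ± 0.39, adjusted p = 0.0438) and the other 3 did not, and that call was lost without before replicate 1 (adjusted p = 0.335) or before replicate 2 (0.236). Their part in the values of iqd21 was not tested.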

How the data were processed

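Leaf RNA of 4 samples was measured on 1-colour Affymetrix arrays, 2 taken 72 h after 0.5 mM PBZ and 2 before it, with groups read from their titles. Per the labels' protocols, biotin-labelled cRNA was made from total RNA, and the signals were made with GCOS, per the submitters' processing notes, with version and scaling not stated. The deposited table gives 1 intensity for each probe set on a linear scale, taken here without further correction. A total of 64 control rows were left out. In the annotation 9685 probe sets had 1 gene, 356 had several genes and 6278 had no entry. Names were matched to RefSeq (TAIR10.1), where all 11 members were found. Sequences were not used here, and coordinates only to order the RefSeq genes along each chromosome.

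Signals were put on a log2 scale after the 2 zeros were replaced by 0.1. The lowest 0.25 of probe sets by mean (4080) were left out, and the other 12239 were fitted in R 4.3.3 with limma 3.58.1 (eBayes with a trend on intensity), with Benjamini-Hochberg adjustment over all of them. The fit had 2 residual and 27.2 prior degrees of freedom, so each error leans on that of all probe sets, and 2 arrays per group limit the precision. The fit was also run on simulated arrays with known changes, whose noise followed its own fitted trend. These held no shift between arrays and no outlying array, so that run does not check the fit against either. The alternatives were other scalings, dim filters, a pseudocount of 1.3, a block for the replicate number, eBayes without the trend, a table without shared probe sets, and each array left out. All members were named, and from each related list up to 3 tested genes with the smallest p and any called gene. A gene of tRNA modification that matched the name pattern of a microtubule family was left out. Members and lists were chosen with earlier results of these data known.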

Additional observations from a re-analysis of the deposited data

Results flagged for a closer look

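Among the 5 IQD probe sets left out of the test as dim, 2 gave a signal on 1 array after PBZ that was above both arrays before PBZ and above the lower quartile of all signals (6.3). IQD18 read 23.7 on after replicate 1, with 1.3 on after replicate 2, against 2.2 and 5.5 before PBZ. IQD26 read 8.4 on after replicate 2, with 1.8 on after replicate 1, against 0.5 and 2.4 before PBZ. In each case the second array after PBZ did not show it, and the 2 genes were high on different arrays. The flag looked only for high arrays after PBZ, and other dim members met the same rule the other way round. On before replicate 2, iqd15 read 7.9, against 1.4 and 1.1 after PBZ, and IQD16 read 8.3, against 1.3 and 7.6. The share of all dim probe sets with either order was not computed.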

How the results depend on the processing

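No IQD probe set was called higher under any of the settings tried. The count called lower was 0 on the deposited scale and 1 (iqd21) with arrays centred on their medians, under quantile normalization, and with the centred arrays and a replicate block (log2 change -1.63, limma adjusted p = 0.0498). Without after replicate 1 on the centred scale, a fit with 1 array after PBZ, the log2 change was -1.61 for iqd21 and -2.79 for IQD31. The count of called members of the related lists was 0 as deposited, 1 (TUB7) after centring, 1 (TUB7) under quantile normalization and 0 with centring and the block, and ranged from 0 to 4 with each centred array left out. The cause was not tested.

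The median log2 change of the tested members ranged from -1.09 to 0.14 with each array left out as deposited and from -1.20 to -0.36 after centring. For iqd21 leave-one-out values ranged from -1.99 to -0.53 as deposited and from -2.10 to -1.16 after centring. On the deposited scale the direction of 5 members turned with 1 array left out. Leave-one-out values there ranged from -1.02 to 0.44 for IQD22, -0.74 to 0.33 for IQD28 and -1.16 to 0.0084 for IQD30. They ranged from -2.56 to 0.81 for IQD31 and -0.46 to 0.37 for iqd32, which was at 0.06 without before replicate 2. After centring only IQD31 turned (-2.79 to 0.31). Centred values ranged from -1.13 to -0.19 for IQD22, -0.97 to -0.17 for IQD28, -1.265 to -0.62 for IQD30 and -0.70 to -0.13 for iqd32. Over 101 member values under alternatives, 87 kept direction and call, 7 turned and 7 passed the threshold.

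Over all tested probe sets 653 were called higher and 30 lower. Falls numbered 179 after centring, 278 under quantile normalization, 15 with no dim filter, 48 with the lowest 0.5 left out, 164 with the centred block and 8 without an intensity trend, which left 157 rises. Leaving out 1 array gave 217 to 1136 rises and 12 to 38 falls as deposited, and 403 to 746 rises and 51 to 521 falls after centring.

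Deviations of same-numbered samples from their group means correlated at -0.06 across probe sets, so the numbers do not show a pairing. With the replicate block on the deposited scale, iqd21 had an adjusted p of 0.467 and no member passed. With the block on centred arrays the call of the green tissue marker LHCB4.3 was lost (adjusted p = 0.0699). Brightness kept 5 of the 11 members out of the test.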
